A study of Drosophila melanogaster with 4 samples.

Results

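Many Drosophila genes still carry a computed gene number, a symbol of the form CG followed by digits, because no name was given to them when the table was made. Of the 7051 genes with such a symbol in the ovary data described here, 88 were higher in the germline libraries than in the soma libraries by a fixed rule. The 88 genes were chosen by their measured values: each had at least 5 FPKM in both germline libraries, and its lower germline value was at least 2 times its higher soma value. FPKM is a level in sequenced fragments, corrected for the length of the gene and the size of the library. A group of 5 CG genes of amino acid transport was left out beforehand by the rule, and 0 of them met both thresholds. The table holds 17490 genes in all. Since the rule used the germline and soma values themselves, these values are a description and carry no test.

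The fly ovary is built of egg chambers, in which a cyst of germ cells, the nurse cells and the oocyte, is enclosed by an epithelium of somatic follicle cells. The nurse cells make RNA, protein and lipid that are passed to the oocyte, and much of the mRNA that the early embryo uses is loaded in this way. Genes that are translated in the germline therefore include both housekeeping genes of a large, DNA-replicating cell and genes for meiosis, RNA control and the supply of the embryo.

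The measurements come from translating ribosome affinity purification (TRAP) of Drosophila melanogaster ovaries, in which a GFP-tagged large-subunit ribosomal protein was pulled down with anti-GFP antibodies and the mRNAs that came with it were sequenced. Germline libraries (genotype Nos:Gal4Vp16, UAS:RPL10-GFP) expressed the tagged protein under the nanos driver, and soma libraries (genotype tj:gal4, UAS RPL10-GFP) under the traffic jam driver. Every library carried the tagged ribosomal protein, the labels give no difference between the groups other than the driver, and there was no untagged control among the 4 libraries. There were 2 libraries in each group, germline replicates 1 and 2 and soma replicates 1 and 2, from whole ovaries. The study calls the replicates biological, while the labels do not say which ovaries each library came from. A gene can also be lower in one group because fewer cells of a type or less RNA per cell were captured, and these cannot be told apart in bulk samples.

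The labels were checked against marker genes. Of 19 germ cell markers, 15 had both germline values above both soma values, and 2 (egl and Sxl) had the opposite order. The sums over the 19 markers were 1739 and 1669 FPKM in germline replicates 1 and 2 and 535 and 584 FPKM in soma replicates 1 and 2. Of these sums, me31B alone had 1137 and 971 FPKM in germline and 187 and 278 FPKM in soma. The mean soma value of these markers was 22.1% to 170% of the mean germline value, with a median of 48.6%. Of 16 follicle cell markers, 15 had both soma values above both germline values, and their sums were 1315 and 1137 FPKM in the germline libraries and 14503 and 17957 FPKM in the soma libraries. Muscle sheath markers had sums of 25.5 and 13.03 FPKM in germline and 54.4 and 83.9 FPKM in soma. Tm1 alone had 50.3 and 62.3 FPKM of the soma sums. The haemocyte markers He and NimC1 and the fat body markers Fbp1 and Lsp2 were at 0 in every library. The haemocyte marker srp was not, with 1.68 and 3.89 FPKM in germline and 40.9 and 44.4 FPKM in soma. For the remaining markers of these lists, Pxn, Hml, Fbp2 and apolpp, the highest value was 1.65 FPKM, of apolpp in soma replicate 2. The part that RNA of the other cell type has in the soma values of the 88 genes was not tested.

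Depth differed strongly between the libraries, and soma replicate 2 was the shallowest. Apart from rRNA genes, the reads recovered from the FPKM numbered 1201943 and 1321723 in germline replicates 1 and 2, against 17085272 and 632515 in soma replicates 1 and 2. Genes for rRNA took 65.1% and 55.4% of the reads in the germline libraries, against 6.19% and 74.2% in the soma libraries. On a gene of 1 kb, 3 reads were worth 1.02 and 0.827 FPKM in germline and 0.0699 and 2.43 FPKM in soma. Levels of a few FPKM in soma replicate 2 therefore rest on a handful of reads.

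Fewer CG genes met the rule in the germline than met its mirror image in the soma. Of 1479 CG genes with at least 5 FPKM in both germline libraries, 88 met it (5.95%), and the other 1391 did not. The same thresholds turned round, with the lower soma value at least 2 times the higher germline value, were met by 240 of 1493 CG genes over the floor in soma (16.1%). Over all genes, 7.42% met the rule in the germline (343 of 4622) and 14.4% met it in the soma (675 of 4677). Genes with any other symbol met the rule in 8.12% of cases in the germline (255 of 3142) and in 13.6% in the soma (434 of 3182). The size of these shares depends on the thresholds, which were the same in both directions, and the difference between the directions was not tested.

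**Figure D1:**
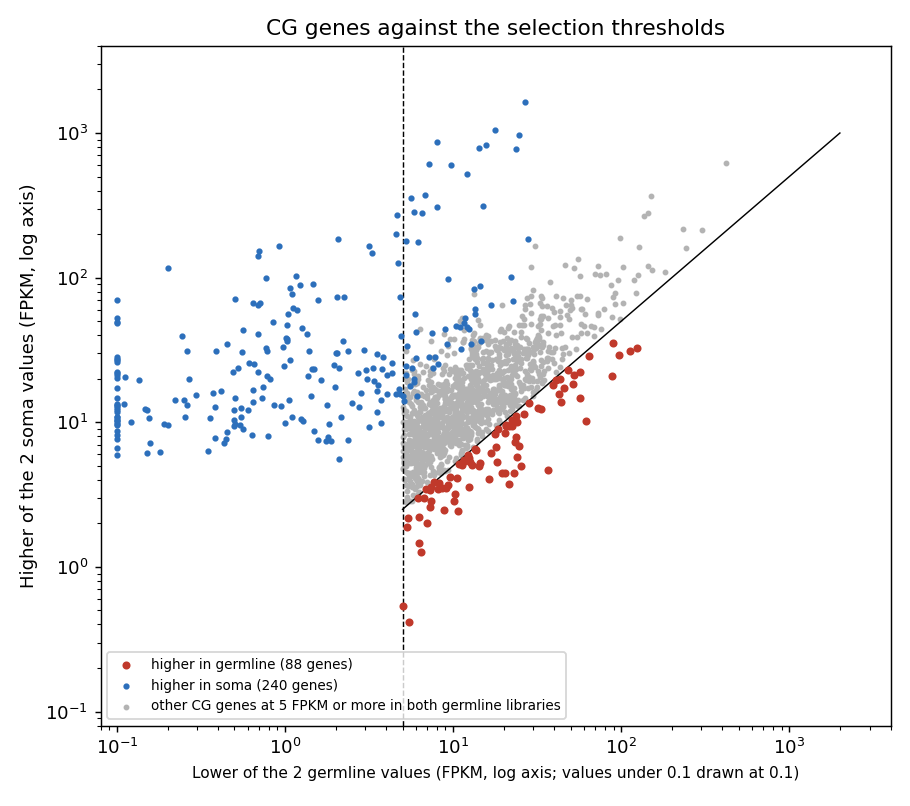
Each point is a CG gene, placed by the lower of its 2 germline values (x axis, FPKM, log scale) and the higher of its 2 soma values (y axis, FPKM, log scale); the dashed line is the floor of 5 FPKM and the solid line the fold of 2. The 88 genes higher in germline lie below the solid line and the 240 genes higher in soma lie above it, as the selection requires. The axes show the least extreme values of the first set and the most extreme of the second. Distances from the line therefore cannot be compared between the 2 sets.

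Most of the 88 genes had values above 0 in the libraries of both groups, at different levels, and few were near 0 in the soma libraries. The lower germline value was 2.001 to 13.1 times the higher soma value, with a median of 2.55. It was at least 5 times that value for 8 genes, at least 4 times for 15 and at least 3 times for 28, and it was under 2.5 times for 40. The mean germline level was 5.49 to 128.5 FPKM with a median of 19.2 FPKM, against a mean soma level of 0.208 to 29.9 FPKM with a median of 4.90 FPKM. The mean soma level was 3.66% to 44.98% of the mean germline level, with a median of 28.2%. For 19 genes this percentage lay below that of every germ cell marker, of which me31B had the lowest value, and for 69 genes it did not. The markers AGO3 and aub, which the study used as germline-specific, had 28.8% and 34.6%. Whether soma values of this size reflect expression in somatic cells was not tested. A mean soma level of at least 1 FPKM was found for 85 genes, and one of at least 10 FPKM for 22.

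Replicates of the germline lay close together for these genes, while those of the soma were further apart where reads were few. The rule put its floor and its fold on the lower germline value, so a gene with a low value in either germline library was left out. The rule set no floor on the soma values. The closeness of the germline replicates, and its contrast with the soma, are therefore partly fixed by the selection. No gene differed more than 2-fold between the germline replicates, and 6 differed more than 1.5-fold. Between the soma replicates 16 genes differed more than 2-fold (on FPKM + 0.1), and replicate 1 was the higher in all of these but CG40006 and CG18190. Soma replicate 1 was the higher for 61 of the 88 genes, and soma replicate 2 for 27. In germline, replicate 1 was the higher for 45 and replicate 2 for 43.

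**Figure D2:**
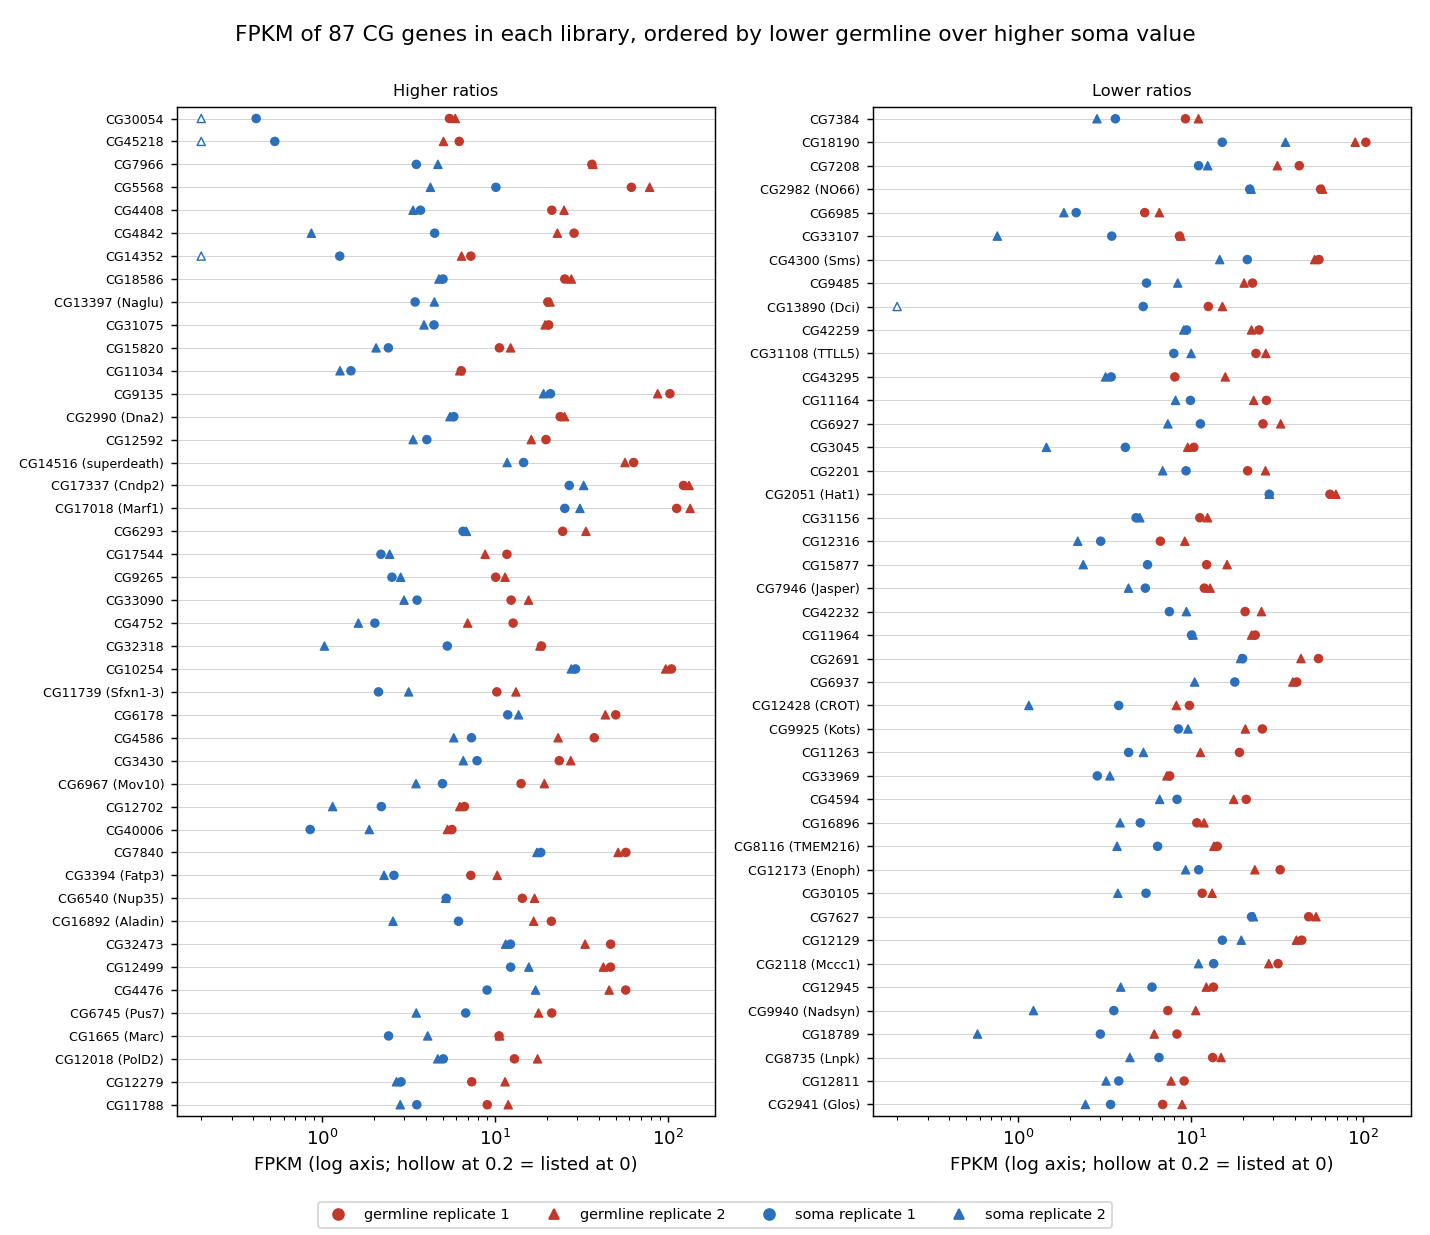
FPKM of 87 of the 88 genes (rows, with the current symbol in parentheses where the gene has since been named) in the 2 germline libraries (red) and the 2 soma libraries (blue) on a log axis; circles are replicate 1, triangles replicate 2, and hollow triangles at 0.2 stand for a value listed at 0. Rows run by the lower germline value over the higher soma value, which is 13.1 for the first row and 2.001 for the last.

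The widest gaps between the groups were found for genes at very different levels. CG30054, which encodes a protein like the alpha subunit of Gq proteins, had 5.47 and 5.91 FPKM in germline replicates 1 and 2, against 0.416 and 0 FPKM in soma replicates 1 and 2. The gene lies on chromosome 2R from 12623726 to 12625352 in the BDGP6.54 annotation, and its values rest on 18 and 24 reads in germline and on 20 and 0 reads in soma. Its log2 difference between germline and soma on log2(FPKM + 0.1), with the standard error of the linear model, was 4.67 ± 1.01. That value rests on the 0 in the shallow soma replicate 2: leaving that library out gave 3.49, leaving soma replicate 1 out gave 5.85, and the value was 2.49 with a pseudocount of 1 FPKM and 6.45 with one of 0.01 FPKM. It stood just over the floor in germline and was close to absent in soma.

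CG45218 (chromosome 3R, 15290309 to 15290799) had 6.23 and 5.05 FPKM in germline, against 0.533 and 0 FPKM in soma. Only 8 and 8 reads in germline, and 10 and 0 in soma, stand behind these values. All 491 bp of CG45218 lie on the opposite strand of Tm1, a tropomyosin gene, which had 9.96 and 11.5 FPKM in germline and 50.3 and 62.3 FPKM in soma. The order of the groups was thus the reverse for the overlapping gene, and whether reads were counted by strand is not given in the sources used here.

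CG7966, the fly counterpart of selenium-binding protein SELENBP1, had nearly equal values in the 2 germline libraries. It had 36.5 and 37.0 FPKM in germline, against 3.52 and 4.69 FPKM in soma, a log2 difference of 3.15 ± 0.32. The gene lies on chromosome 3R from 13049398 to 13051453. The germline values rest on 167 and 209 reads, and the soma values on 235 and 9.

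CG5568 and CG18586 are adjacent on chromosome 3L and both encode AMP-binding enzymes of the acyl-CoA synthetase family, which join fatty acids to coenzyme A. CG5568 (5871501 to 5873518) had 61.8 and 78.8 FPKM in germline, against 10.2 and 4.24 FPKM in soma. CG18586 (5873311 to 5875466) had 25.4 and 27.8 FPKM in germline, against 5.02 and 4.75 FPKM in soma. By their selection, both genes were several times higher in each germline library than in either soma library. The log2 differences were 3.39 ± 0.44 for CG5568 and 2.42 ± 0.31 for CG18586. With soma replicate 2 left out, the difference of CG5568 was 2.77, and with soma replicate 1 left out it was 4.01. They overlap by 208 bp on the same strand, so part of their reads may be shared and they do not count as independent.

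CG4408, a carboxypeptidase of the zinc-dependent A family, had 21.4 and 25.2 FPKM in germline, against 3.72 and 3.37 FPKM in soma. CG4842, a short-chain dehydrogenase, had 28.8 and 23.0 FPKM in germline, against 4.49 and 0.868 FPKM in soma. Its value in soma replicate 2 is 1 read, while soma replicate 1 had 180, so the lower soma value is imprecise. CG14352 had 7.27 and 6.43 FPKM in germline, against 1.27 and 0 FPKM in soma. It overlaps RFeSP, a gene of the mitochondrial respiratory chain, by 148 bp on the opposite strand, and RFeSP had 34.1 and 19.0 FPKM in germline and 30.5 and 16.7 FPKM in soma.

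CG13397, since named Naglu after the lysosomal enzyme that breaks down heparan sulfate, had 20.3 and 20.9 FPKM in germline, against 3.46 and 4.47 FPKM in soma. CG31075, an aldehyde dehydrogenase, had 20.5 and 19.6 FPKM in germline, against 4.45 and 3.90 FPKM in soma. The values of both genes lay close together within each group, with log2 differences of 2.36 ± 0.35 and 2.24 ± 0.34. The gap between the groups is what these genes were selected for. These 10 genes, from CG30054 to CG31075, had the highest ratios of lower germline to higher soma value, from 13.1 down to 4.40.

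The genes with the highest germline levels had values well above 0 in the soma libraries too. A mean germline level of at least 100 FPKM was reached by 3 genes, one of 50 to 100 FPKM by 10, one of 10 to 50 FPKM by 57 and one under 10 FPKM by 18. CG17337, since named Cndp2, a dipeptidase of the cytosol, had the highest mean, with 123.7 and 133 FPKM in germline against 27.0 and 32.7 FPKM in soma. CG17018, now Marf1, encodes an RNA-binding regulator of oocyte meiosis. It had 113 and 135 FPKM in germline, against 25.4 and 31.1 FPKM in soma, and the largest number of reads in germline, 1782 and 2631. For both genes the log2 difference was close to 2, at 2.11 ± 0.26 for Cndp2 and 2.13 ± 0.27 for Marf1.

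CG10254, the counterpart of the ubiquitin-conjugating enzyme UBE2O, had 105 and 97.6 FPKM in germline, against 29.3 and 27.7 FPKM in soma. CG18190, a protein of the EB1 family that binds the ends of microtubules, had 103 and 89.6 FPKM in germline, against 15.2 and 35.4 FPKM in soma. The soma replicates of CG18190 differed more than 2-fold although 704 and 47 reads stood behind them, and replicate 2 was the higher. CG9135, the counterpart of the chromosome condensation regulator RCC2, had 103 and 87.7 FPKM in germline, against 21.0 and 19.2 FPKM in soma. For CG9135 the groups were 4.17-fold apart by the lower germline and the higher soma value.

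CG2051, now Hat1, a histone acetyltransferase, had 64.0 and 69.3 FPKM in germline, against 28.5 and 28.5 FPKM in soma. CG14516, now superdeath, had 63.7 and 56.7 FPKM in germline, against 14.7 and 11.8 FPKM in soma. CG2982, now NO66, a histone demethylase, had 56.5 and 58.0 FPKM in germline, against 22.0 and 22.4 FPKM in soma. Hat1 and NO66 thus paired replicates that lay close together in both groups with modest log2 differences, 1.22 ± 0.25 and 1.36 ± 0.25, beside 2.18 ± 0.27 for superdeath. CG7840 had 57.4 and 51.8 FPKM in germline, against 18.5 and 17.5 FPKM in soma.

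By current symbols, synonyms or well-known protein families, 39 of the 88 genes were placed in 7 role groups, and the other 49 in none. The groups were drawn up after the values had been seen and are a description. Being in no group does not mean that the product is unknown: CG30054, CG7966, CG4408, CG4842, CG10254, CG18190, CG9135 and TTLL5 belong to known families but were not grouped. A current name other than the CG symbol was held by 28 genes in the annotation, so uncharacterised describes only the 60 whose symbol has not changed, and some of those 60 belong to well-known enzyme families. The largest group was acyl-CoA and lipid metabolism with 10 genes, whose ratio of lower germline to higher soma value was 2.16 to 6.08 with a median of 3.34. Its highest ratios, 6.08 and 5.07, are those of CG5568 and CG18586, which overlap and do not count as independent. The short-chain dehydrogenase gene CG9265 was placed in this group, while CG4842, also a short-chain dehydrogenase gene, was placed in none. The median of the group therefore depends on the placement. The other groups had medians of 2.24 to 2.74, and the 49 genes in no group had a median of 2.53. Each group holds few genes, and its members were selected on the same values, so the order of the groups was not tested.

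**Figure D3:**
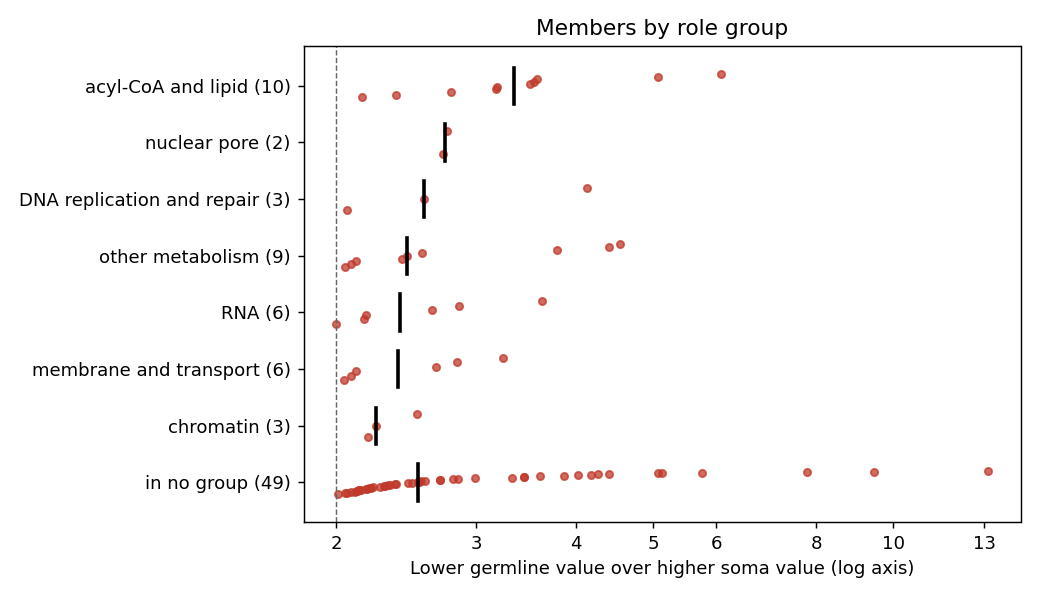
Lower germline value over higher soma value (x axis, log scale) for each of the 88 genes (points), in role groups with the number of genes in parentheses; black bars are medians and the dashed line is the threshold of 2. The 10 genes of acyl-CoA and lipid metabolism have the highest median, 3.34, and the 49 genes in no group run from 2.01 to 13.1.

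Beside CG5568 and CG18586, the lipid group held genes of activation, transport and oxidation of fatty acids, a glucosylceramidase gene and a short-chain dehydrogenase gene. CG6178, a relative of firefly luciferase with acyl-CoA ligase activity, had 50.2 and 43.7 FPKM in germline, against 11.9 and 13.7 FPKM in soma. The acyl-CoA oxidase gene CG4586 had 37.7 and 23.3 FPKM in germline, against 7.33 and 5.79 FPKM in soma. The second acyl-CoA oxidase gene, CG17544, was lower in both groups, with 11.8 and 8.80 FPKM in germline and 2.19 and 2.46 FPKM in soma. Acyl-CoA oxidases carry out the first step of fatty acid oxidation in peroxisomes.

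CG12428, now CROT, encodes the carnitine octanoyltransferase of peroxisomes and had 9.84 and 8.27 FPKM in germline, against 3.83 and 1.16 FPKM in soma. CROT overlaps btz by 67 bp on the opposite strand, and whole reads were not recovered for it. The overlapping btz had 38.6 and 33.2 FPKM in germline and 23.6 and 27.1 FPKM in soma. CG13890, now Dci, an enoyl-CoA isomerase for unsaturated fatty acids, had 12.7 and 15.3 FPKM in germline, against 5.31 and 0 FPKM in soma. The soma replicates of Dci stood furthest apart among the 88 genes, at 276 reads in replicate 1 and 0 in replicate 2, and its log2 difference of 4.25 ± 1.66 had the largest error. Leaving soma replicate 2 out gave 1.37 and leaving soma replicate 1 out gave 7.13, and the value was 2.57 with a pseudocount of 1 FPKM and 5.91 with one of 0.01 FPKM, so its size is not fixed by these data. CG3394, now Fatp3, a fatty acid transport protein, had 7.27 and 10.3 FPKM in germline, against 2.61 and 2.29 FPKM in soma. CG33090, a glucosylceramidase of the GBA2 type, had 12.4 and 15.7 FPKM in germline, against 3.55 and 2.99 FPKM in soma. CG9265, a short-chain dehydrogenase, was at a similar level to CG33090, with 10.1 and 11.5 FPKM in germline and 2.54 and 2.85 FPKM in soma.

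Other metabolic enzymes made up 9 genes, with ratios of 2.05 to 4.54 and a median of 2.45, and acted on sugars, polyamines, amino acids and cofactors. CG9485, the glycogen debranching enzyme, had 22.8 and 20.4 FPKM in germline, against 5.55 and 8.42 FPKM in soma. CG4300, now Sms, spermine synthase, had 55.3 and 52.2 FPKM in germline, against 21.3 and 14.7 FPKM in soma. CG12173, now Enoph, an enzyme of methionine salvage, had 33.0 and 23.5 FPKM in germline, against 11.1 and 9.35 FPKM in soma. Spermine synthase and methionine salvage are linked in metabolism, since polyamine synthesis releases the methylthioadenosine that the salvage pathway recycles. CG2118, now Mccc1, a subunit of the carboxylase of leucine breakdown, had 32.0 and 28.3 FPKM in germline, against 13.6 and 11.1 FPKM in soma. Mccc1 overlaps faf by 90 bp on the opposite strand, and faf had 38.4 and 29.4 FPKM in germline and 17.8 and 23.3 FPKM in soma. CG9940, now Nadsyn, which makes NAD, had 7.38 and 10.7 FPKM in germline, against 3.59 and 1.23 FPKM in soma. CG12279, a sulfurtransferase gene that overlaps PolQ on the opposite strand, was the lowest but one, with 7.36 and 11.5 FPKM in germline and 2.87 and 2.70 FPKM in soma.

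Genes of RNA processing and control numbered 6, with ratios of 2.001 to 3.63. Besides Marf1, these were a helicase, a pseudouridine synthase, a factor of the SMN complex and ribosome assembly factors. CG6967, now Mov10, the RNA helicase, had 14.2 and 19.4 FPKM in germline, against 4.98 and 3.50 FPKM in soma. CG6745, now Pus7, which makes pseudouridine, had 21.4 and 17.9 FPKM in germline, against 6.79 and 3.51 FPKM in soma. CG2691, the counterpart of the ribosome assembly factor RRP12, had 55.0 and 43.5 FPKM in germline, against 19.98 and 19.5 FPKM in soma. CG2691 was thus the second most abundant of the group after Marf1 in germline.

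CG6937, the counterpart of the nucleolar protein NIFK, had 41.1 and 39.0 FPKM in germline, against 18.0 and 10.5 FPKM in soma. Next to it on chromosome 3R, 54 bp away and on the opposite strand, lies CG33107 (22583352 to 22584718), which had 8.61 and 8.79 FPKM in germline and 3.49 and 0.760 FPKM in soma. These and the pair CG5568 and CG18586 were the 2 neighbouring pairs among the 88 genes. Such pairs held 4.55% of the 88 genes, against 32.7% of the 1391 other CG genes over the floor in germline and 20.9% of the CG genes higher in soma. These shares depend on the size of each set, and the difference was not tested. CG2941, now Glos, a Gemin4-like gene of the complex that assembles spliceosomal particles, had 6.88 and 8.93 FPKM in germline, against 3.44 and 2.46 FPKM in soma, and stood at the fold threshold with a ratio of 2.001.

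Genes of DNA replication and of chromatin were also among the 88. CG2990, now Dna2, the nuclease and helicase that trims Okazaki fragments, had 23.9 and 25.4 FPKM in germline, against 5.79 and 5.51 FPKM in soma. CG12018, now PolD2, a subunit of DNA polymerase delta, had 13.003 and 17.7 FPKM in germline, against 5.04 and 4.68 FPKM in soma. In both the soma replicates were within 1.5-fold of each other, and Dna2 had the wider gap between the groups with a ratio of 4.13. CG7946, now Jasper, a reader of methylated histone H3, joined Hat1 and NO66 in the chromatin group, with 11.998 and 12.97 FPKM in germline against 5.47 and 4.37 FPKM in soma.

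The nuclear pore genes were CG6540 and CG16892. CG6540, now Nup35, had 14.4 and 17.0 FPKM in germline, against 5.24 and 5.19 FPKM in soma. CG16892, now Aladin, had 21.3 and 16.8 FPKM in germline, against 6.17 and 2.58 FPKM in soma. Nup35 and Aladin had nearly the same ratio, 2.75 and 2.72, although Aladin's soma replicates were more than 2-fold apart.

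Membrane and transport genes numbered 6, with ratios of 2.05 to 3.24. CG11739, now Sfxn1-3, a mitochondrial carrier of the sideroflexin family, had 10.3 and 13.3 FPKM in germline, against 2.12 and 3.18 FPKM in soma. CG4476, a transporter of the SLC6 family, had 57.3 and 46.0 FPKM in germline, against 9.03 and 17.2 FPKM in soma. CG7627, an ABC transporter of the C family, had 48.2 and 53.2 FPKM in germline, against 22.5 and 23.1 FPKM in soma. CG4476 and CG7627 were the most abundant of this group, and the soma level of CG7627 was the higher of the pair. CG8735, now Lnpk, which shapes the endoplasmic reticulum, had 13.4 and 15.0 FPKM in germline, against 6.56 and 4.45 FPKM in soma. CG8116, now TMEM216, a gene of the base of the cilium, had 14.3 and 13.6 FPKM in germline, against 6.44 and 3.75 FPKM in soma. CG40006, of the CD36 family of lipid receptors, was the lowest, with 5.65 and 5.32 FPKM in germline and 0.855 and 1.88 FPKM in soma.

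Among genes in no role group, several still had a wide gap. CG15820 had 10.6 and 12.4 FPKM in germline, against 2.42 and 2.06 FPKM in soma. CG11034 had 6.41 and 6.27 FPKM in germline, against 1.47 and 1.27 FPKM in soma. CG12592 had 19.8 and 16.3 FPKM in germline, against 4.05 and 3.37 FPKM in soma. In each of these the lower germline value was over 4 times the higher soma value, but soma replicate 2 rests on 3, 4 and 10 reads. CG31108, now TTLL5, an enzyme that adds glutamate to tubulin, had 23.9 and 27.2 FPKM in germline, against 7.99 and 10.1 FPKM in soma. The gene body of CG31510, introns included, shares 5703 bp with that of TTLL5 on the same strand, while the exons of TTLL5 total 3463 bases. CG31510 had 5.71 and 6.88 FPKM in germline and 4.78 and 6.24 FPKM in soma.

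CG32318 lies next to Klp61F, a mitotic kinesin gene, on chromosome 3L and is known as a chimeric gene that carries a copied stretch of it, so reads may be shared. It had 18.6 and 18.3 FPKM in germline, against 5.31 and 1.03 FPKM in soma. Klp61F had 23.1 and 28.9 FPKM in germline, against 8.69 and 5.45 FPKM in soma. The genes thus had the same order of groups, and their values cannot be taken as separate.

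The germline replicates were furthest apart for CG43295, CG4752 and CG11263. CG43295 had 8.10 and 15.9 FPKM in germline, against 3.47 and 3.22 FPKM in soma, from 12 and 29 reads in germline. CG4752 had 12.8 and 6.97 FPKM in germline, against 2.02 and 1.62 FPKM in soma. CG11263 had 19.2 and 11.4 FPKM in germline, against 4.38 and 5.33 FPKM in soma. The replicate that was higher was the second for CG43295 and the first for CG4752 and CG11263.

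Membership near the thresholds turned on small differences. Just inside the fold of 2 with Glos stood CG12811 and Lnpk, with ratios of 2.01 and 2.05. Just outside it were CG30096, CG16833 (now TTLL4A) and CG5235, with ratios of 1.99, 1.99 and 1.98. Just inside the floor of 5 FPKM were CG45218, CG40006 and CG6985, whose lower germline values were 5.05, 5.32 and 5.42 FPKM. CG6985 overlaps vret, a gene of the piRNA pathway, by 128 bp on the opposite strand, and vret had 9.06 and 11.3 FPKM in germline and 4.39 and 4.88 FPKM in soma. Just outside the floor were CG3618, CG4398 (now jtb) and CG10445, whose lower germline values were 4.83, 4.70 and 4.61 FPKM. Of these jtb had 6.62 and 4.70 FPKM in germline against 0.397 and 0 FPKM in soma, a ratio of 11.8, and would have ranked second had the floor been slightly lower.

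Features that the rule did not use were set beside those of the 1391 other CG genes over the floor in germline and of the 240 CG genes higher in soma, of which 239 are in the annotation. All 88 genes are annotated as protein-coding. The median exon length was 2006 bases for the 88 genes, against 1770 for the other CG genes and 2043 for the soma genes. The median coding length was 1514 bases, against 1218 and 1248. Genes of a single exon were 5 of the 88 (5.68%), against 11.2% of the other CG genes and 10.5% of the soma genes. A current name had been given to 31.8% of the 88 genes, against 27.0% of the other CG genes and 19.6% of the soma genes.

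By chromosome arm, 31 of the 88 genes (35.2%) were on 3R, against 25.02% of the other CG genes and 24.7% of the soma genes. On X were 12 (13.6%), against 19.4% and 17.6%. The remaining genes were spread over 2L (16), 2R (14) and 3L (15), and none was on chromosome 4 or Y. These shares are descriptions of sets that were selected on expression, and no test of them was made.

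**Figure D4:**
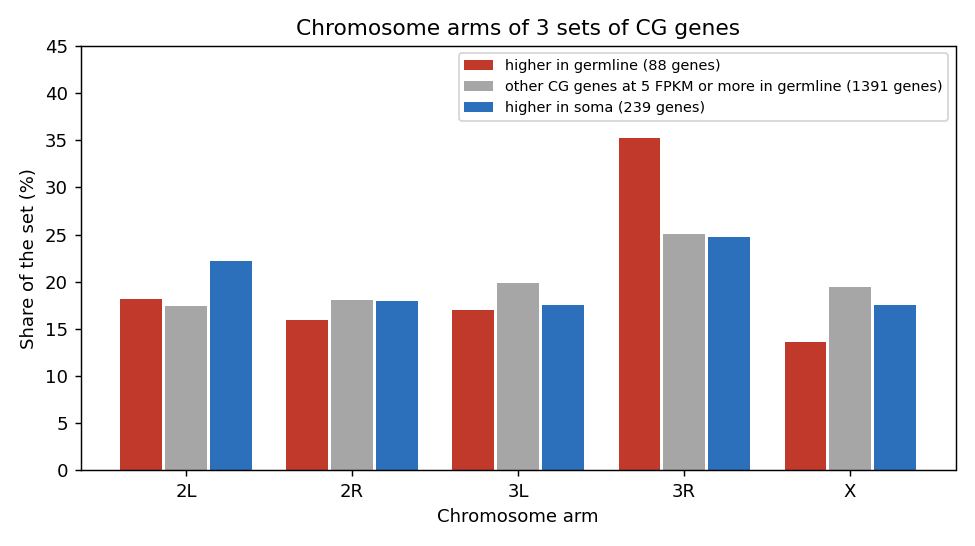
Share of each set of CG genes on each chromosome arm (y axis, percent of the set) for the 88 genes higher in germline (red), the 1391 other CG genes over the floor in germline (grey) and the 239 annotated genes higher in soma (blue). The red bar is the tallest on 3R, at 35.2%, and the shortest on X, at 13.6%.

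Of the 88 genes, 53 (60.2%) are overlapped by another annotated gene, against 48.5% of the other CG genes and 42.7% of the soma genes. Overlaps were taken between whole gene bodies, introns included, so an overlap need not lie in exons. A gene on the opposite strand overlaps 43 of the 88 (48.9%), against 43.9% and 37.2%, and a gene on the same strand overlaps 12 (13.6%), against 6.69% and 10.04%. The overlapping gene was above 0 in at least 1 library for 46 of the 53. For 12 genes the overlapping gene had the higher mean FPKM of the pair in the germline libraries. Where reads were not counted by strand, reads in exons that overlap on either strand could be shared, and otherwise only those on the same strand. The part of each overlap that lies in exons of both genes was not measured.

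For a linear model across all genes (limma), germline and soma were compared on log2(FPKM + 0.1) for 8823 genes. More than 5-fold higher in germline at an unadjusted p under 0.05 were 95 genes (1.08%), and after Benjamini-Hochberg adjustment 48 genes (0.544%). Among the 88 genes 12 passed the first of these (13.6%) and 9 the second, and since the genes were selected on the same values, nothing is read from these counts. The 12 were CG30054, CG45218, CG7966, CG5568, CG4408, CG4842, CG14352, CG18586, Naglu, Dci, CG32318 and CG33107. Of these 12, 7 had 0 or 1 read in soma replicate 2, and the most any had there was 16. The log2 difference of the 88 genes had a median of 1.76 (1.15 to 4.67), beside a median of -0.04 over all 8823 genes. With a single library left out, the number of the 88 genes past the first threshold was 6 without germline replicate 1 and 24 without soma replicate 1. With 2 libraries in each group, an exact two-sided permutation test of 1 gene cannot give a p under 0.333.

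Reads behind the values were unequal in a way that touches most of the 88 genes. Whole reads were recovered for 86 of them. The median was 118 and 143 reads in germline replicates 1 and 2, against 565.5 and 11.5 reads in soma replicates 1 and 2. In soma replicate 2, 40 of the 86 had 10 reads or fewer and 14 had 3 or fewer. In the germline libraries and in soma replicate 1 none had 3 or fewer, and only CG45218 had 10 or fewer. The 4 genes at 0 in soma replicate 2, CG30054, CG45218, CG14352 and Dci, had 10 to 276 reads in soma replicate 1. In soma replicate 2, 3 reads would stand for 2.17 FPKM of CG30054, 5.57 FPKM of CG45218, 2.36 FPKM of CG14352 and 2.01 FPKM of Dci. The values in soma replicate 1 lay below these for CG30054, CG45218 and CG14352, and above it for Dci. For CG45218 even a level like the 5.05 FPKM of germline replicate 2 would give fewer than 3 reads there. The fitted log2 difference depended in the same way on the soma library for CG45218, with 3.17 without soma replicate 2 and 5.84 without soma replicate 1, and for CG14352, with 2.34 and 6.12. It did so too for CG4842, with 2.49 without soma replicate 2 and 4.74 without soma replicate 1, and for CG33107, with 1.29 and 3.35. For CG18190, whose soma replicate 2 was the higher, the values were 2.65 without it and 1.44 without soma replicate 1.

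**Figure D5:**
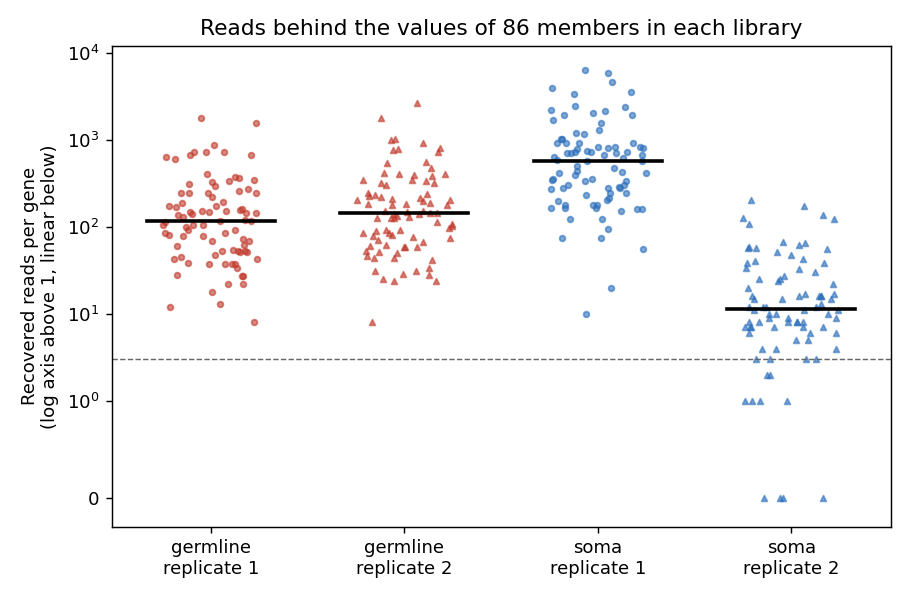
Recovered reads per gene (y axis, log scale above 1 and linear below) for 86 of the 88 genes in the 2 germline libraries (red) and the 2 soma libraries (blue); black bars are medians and the dashed line marks 3 reads. The median is 118 and 143 reads in germline and 565.5 reads in soma replicate 1, but 11.5 reads in soma replicate 2, where 4 genes are at 0.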

How the data were processed

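Drosophila ovaries were profiled by TRAP in 4 libraries, 2 per group, grouped by their labels. The authors deposited FPKM values of 17490 genes, 1 column per library, in which decimal commas were changed to points on reading. Their range was checked apart from the automatic unit check. The submitters' processing notes name cutadapt, FastQC, HISAT2, DESeq2 and genome build dm6; the counting tool and the annotation are not given in the sources used here.

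Positions, lengths and current symbols come from the Ensembl release 115 annotation of BDGP6.54 (17337 genes matched), which need not be the one the authors used. FPKM times exon length, divided by 1 constant per library, gave whole reads (tolerance 0.03) for 10187 of the 10518 genes above 0 (96.9%). The constants were inversely proportional to median-ratio size factors within 0.53%, so the deposited FPKM were already scaled between libraries. Reads were 3445490 and 2964393 in germline and 18213479 and 2448920 in soma, rRNA included.

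Germline and soma were compared on log2(FPKM + 0.1) by limma (version 3.58.1, R version 4.3.3; lmFit, then eBayes with a trend and no replicate block), for genes averaging 0.1 FPKM or more. On this scale the fold changes of low genes depend on the added 0.1 FPKM and on values at 0, and can be too small or too large. The log2 difference of Dci was 4.25, but 1.37 without soma replicate 2, where Dci was at 0. The script was tested on simulated data. Other steps used Python 3.11.15, numpy 2.4.6 and pandas 2.3.3. The rule was applied as stated, and 5 CG genes of amino acid transport were left out by it.

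The members and gene lists were chosen with earlier results of these data known. Named genes are the 10 with the highest ratio, the 10 with the highest germline level, 3 on each side of each threshold, neighbours, and the 3 with replicates furthest apart per group. Further genes were named after their values were seen: those with a known role, those past the limma thresholds, those with a ratio over 4, and genes that overlap them. Protein and promoter comparisons were not run here. Alternatives were other folds and floors, pseudocounts of 1 and 0.01, other filters, median-ratio and quantile scaling, eBayes without a trend, a replicate block, adjusted p and each replicate left out. Of the marker lists, 1 germ cell, 1 follicle cell and 1 muscle sheath gene were not analysed here. The values of 1 of the 88 genes are not reported here, though it is included in the counts.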

Additional observations from a re-analysis of the deposited data

How the results depend on the processing

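The number of CG genes that met the rule was 88; it was 28 with a fold of at least 3 and 226 with a fold of at least 1.5, and 147 to 283 with a single replicate left out, of which the highest was without soma replicate 1. By construction all 88 meet the rule when a replicate is left out. Over all genes, 95 passed the 5-fold threshold in germline; 30 did with a pseudocount of 1 FPKM, 234 with quantile normalization, 146 with a replicate block, 48 after Benjamini-Hochberg adjustment and 73 to 306 with a replicate left out. Among the 88 genes 12 passed; 26 did with quantile normalization, 12 with the replicate block and 6 to 24 with a replicate left out. The correlation of same-numbered deviations was -0.066. With 2 libraries in each group, this value cannot decide whether same-numbered libraries were prepared together. Limma-voom on recovered reads, added after seeing the data, gave 130 genes and 12 of the 88, with 9 shared. Quantile normalization shifted the median log2 difference of all genes to 0.17, against -0.04. The sign of a member's log2 difference is fixed by the rule when a replicate is left out or the pseudocount is changed, so it says nothing about stability, and the sizes moved most for genes at 0 or 1 read in soma replicate 2 (Dci 1.37 to 7.13). The shallow soma replicate 2 limits every low soma value.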
